A study of Mus musculus and Homo sapiens with 11 samples.

Results

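The cholesterol synthesis and uptake genes described here are 32 genes of sterol metabolism. They were taken by symbol from a table of 24062 mouse genes, and all 32 were found and passed the filter on low values (a mean scaled count of at least 10 over the 6 libraries). They comprise 7 enzymes of the mevalonate pathway, 10 that turn its product into cholesterol, 8 genes of sterol sensing and transcription, 3 of uptake, and 4 of intracellular transport and esterification. The table held polyadenylated RNA from the mouse mammary tumour line MMTV-ErbB2, in which the mouse mammary tumour virus promoter drives the ErbB2 receptor, with 3 libraries labelled parental and 3 labelled brain metastatic derivative (BrM 2a). Each is 1 line, both groups were cultured in medium with 10% fetal bovine serum to 80% confluence, and neither carries a further labelled treatment. The other 5 of the 11 libraries of the series are human and were not analysed here. Labels name 2 culture media (DMEM or RPMI) and 2 library kits (TruSeq or NEBNext) without assigning either to a library, so medium and kit cannot be told apart from the line.

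Cells make cholesterol from acetyl-CoA through mevalonate, isoprenoids and squalene, and take it up in lipoproteins, which serum supplies in culture. The transcription factor SREBP-2 drives synthesis and uptake genes when sterol in the endoplasmic reticulum is low, and its relative SREBP-1 drives fatty acid genes. Scap escorts both to the Golgi for cleavage, and Insig proteins hold Scap back when sterol is plentiful. The LXR receptors respond to oxysterols and switch on efflux genes and Mylip, a ubiquitin ligase that removes lipoprotein receptors. The brain makes its own cholesterol behind the blood-brain barrier, where astrocytes supply it on Apoe particles.

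Reads assigned to genes went from 29877087, in BrM library 1, to 46683735. The first principal component of all tested genes separated the groups (77.2% of the variance) and the second (15.4%) set BrM library 1 apart from BrM libraries 2 and 3. All 6 epithelial markers checked were detected, with a summed level of 94786 to 105426 in parental and 156289 to 172459 in BrM libraries. Without BrM library 1, Krt8, Krt18, Cldn3 and Cldn7 were higher, while Cdh1 and Epcam were 1.58-fold and 1.27-fold lower. Summed endothelial markers reached at most 25.6 and neuronal ones 17.2, with Cldn5 at 0. Fibroblast markers summed to 1565 to 5894 in parental and 209 to 995 in BrM libraries, with Lum at 0. Astrocyte markers summed to 1533 to 4387 and 102 to 222, but went both ways, and Aqp4 was under the filter. Gfap was 3.73-fold higher without BrM library 1 and 5.77-fold higher in that library alone. Slc1a2 was 53.6-fold and 13.6-fold lower in these fits, and Aldh1l1 was lower in both. Oligodendrocyte markers summed to 980.0 to 1303 in parental and 2109 to 2194 in BrM libraries, with Olig2 at 0. Immune and microglial markers summed to 592 to 908 in parental and 512 to 3413 in BrM libraries, highest in BrM library 1. Ptprc and Itgam stayed under the filter. Without BrM library 1, Csf1r and P2ry12 were 44.8-fold and 9.56-fold higher, and Tmem119 and Aif1 37.7-fold and 11.3-fold lower. Cd68 did not pass in that fit (1.40-fold lower, limma adjusted p = 0.447). In BrM library 1 alone Csf1r, P2ry12 and Cd68 were 58.9-fold, 30.6-fold and 9.04-fold higher, and Tmem119 and Aif1 1.77-fold and 1.13-fold lower. The part of these markers in the results was not tested. Values below are scaled read counts of single libraries, in parental libraries 1, 2 and 3 and BrM libraries 1, 2 and 3 by the column numbers of the table. Separate cultures are not named for the libraries within a line, and a p-value here therefore covers library-to-library spread alone, possibly technical.

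Across the 3 BrM and 3 parental libraries, 2 members rose, Soat1 and Apoe, and 2 fell, Mylip and Nr1h3. The other 28 did not pass limma's test at an adjusted p under 0.05. Over all genes tested 28.1% were called, 12.2% higher and 15.8% lower. Groups did not overlap for 9 of the 32 members, against 48% of all genes. Of the 17 synthesis enzymes 0 passed by limma, and within the BrM group 1 library stood far from the other 2. BrM library 1 was the lowest of all 6 libraries for 22 of the 32 members, against 27.9% of all genes, and for 16 of the 17 synthesis enzymes. It was at least 2-fold below both BrM libraries 2 and 3 for 16 members, against 8.58% of all genes, and for 13 of the 17 enzymes. It was at least 2-fold above both for 2 members, Npc2 and Vldlr, against 14.7% of all genes, and the highest of the 6 libraries for 3, against 26.8%. For 14 members, against 3.53% of all genes, it was at least 2-fold below each of the other 5 libraries. BrM libraries 2 and 3 were both above all parental libraries for 13 members, against 34.7% of all genes, and both below them for 10, against 37.1%. They differed from each other by 1.005-fold to 1.15-fold over the members, and the parental libraries spanned 1.04-fold to 4.47-fold.

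**Figure D1:**
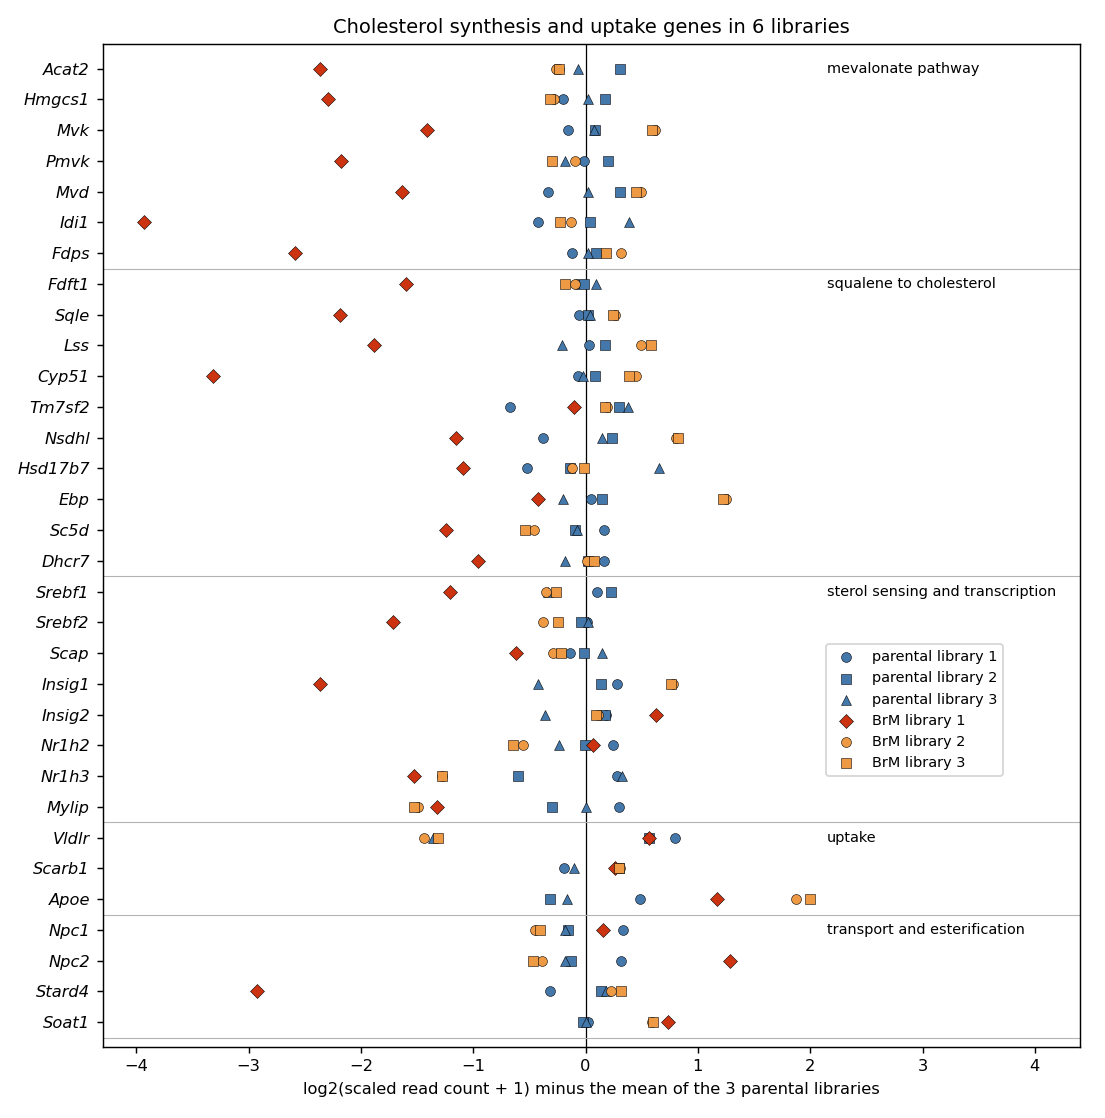
Level of each of the 32 genes in each library, as log2(scaled read count + 1) minus the mean of the 3 parental libraries (horizontal axis), with genes grouped by role. Red diamonds are BrM library 1, orange points BrM libraries 2 and 3, and blue points the parental libraries; BrM library 1 is the lowest library for 16 of the 17 synthesis enzymes, and the orange points of a gene lie within 1.15-fold of each other.

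All 7 enzymes of the mevalonate pathway had their lowest level in BrM library 1, at least 2-fold below every other library. Hmgcs1, which joins acetyl groups into the precursor of mevalonate, was at 6366, 8240 and 7439 in parental libraries 1, 2 and 3 and 1490, 6028 and 5854 in BrM libraries 1, 2 and 3. BrM libraries 2 and 3 were just below the parental range and library 1 was 3.98-fold below them. The acetoacetyl-CoA forming enzyme Acat2 was at 433 in BrM library 1, 1856 and 1897 in BrM libraries 2 and 3, and 1891, 2758 and 2123 in the parental libraries. Mvk, which phosphorylates mevalonate, was at 1142, 1352 and 1342 in parental libraries 1, 2 and 3 and 478, 1955 and 1918 in BrM libraries 1, 2 and 3. Here BrM library 1 was 2.66-fold below the parental mean while BrM libraries 2 and 3 were 1.52-fold above it, and the difference between the groups was -0.07 on the log2 scale (SE 0.54). The next kinase, Pmvk, was at 305 in BrM library 1, 1292 and 1124 in BrM libraries 2 and 3, and 1370, 1587 and 1214 in the parental libraries. Mvd, which makes isopentenyl diphosphate, was at 325 in BrM library 1, 1418 and 1377 in BrM libraries 2 and 3, and 799, 1250 and 1024 in the parental libraries. Both had a single low library among 6.

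Idi1, which isomerises isopentenyl diphosphate, showed the widest gap of the pathway, at 5592, 7699 and 9832 in parental libraries 1, 2 and 3 and 491, 6846 and 6421 in BrM libraries 1, 2 and 3. BrM library 1 was 15.3-fold below the parental mean, and the other 2 BrM libraries lay inside the parental range. Fdps, which makes farnesyl diphosphate, was at 7474, 8668 and 8235 in parental libraries 1, 2 and 3 and 1350, 10115 and 9220 in BrM libraries 1, 2 and 3. BrM libraries 2 and 3 were both above the parental range and library 1 was 7.15-fold below them. Sequence of Idi1, Fdps and Acat2 is shared with other genes or pseudogenes for 17.7%, 26.2% and 39.1% of their stretches of 50 bases, so reads could be split. Acat3, the gene that shares Acat2 sequence, stood at 5.59 to 35.6. How reads that fit both genes were counted is not given, so this level cannot show whether Acat2 lost reads.

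Of the 10 enzymes from squalene synthesis to cholesterol, 9 were lowest in BrM library 1, 6 were at least 2-fold below both other BrM libraries there, and 4 at least 2-fold below every other library. Fdft1, squalene synthase, was at 1560 in BrM library 1, 4427 and 4165 in BrM libraries 2 and 3, and 4481, 4705 and 5044 in the parental libraries. Sqle, the squalene epoxidase, was at 7826, 8261 and 8355 in parental libraries 1, 2 and 3 and 1791, 9766 and 9631 in BrM libraries 1, 2 and 3. Its 3 parental libraries lay within 1.07-fold of each other, and BrM library 1 was 4.55-fold below their mean. Lss, which closes the sterol rings, was at 579 in BrM library 1, 3004 and 3188 in BrM libraries 2 and 3, and 2178, 2409 and 1847 in the parental libraries. Cyp51, the lanosterol demethylase, was at 7310, 8123 and 7511 in parental libraries 1, 2 and 3 and 768, 10404 and 9972 in BrM libraries 1, 2 and 3. BrM library 1 was 9.94-fold below the parental mean and 13.2-fold below BrM libraries 2 and 3, which were both above every parental library.

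The 6 enzymes listed after Cyp51 were 1.22-fold to 3.90-fold lower in BrM library 1 than in BrM libraries 2 and 3. Nsdhl, a sterol dehydrogenase, was at 994 in BrM library 1, 3856 and 3899 in BrM libraries 2 and 3, and 1702, 2594 and 2441 in the parental libraries. Ebp, the sterol isomerase, was at 2389, 2557 and 2006 in parental libraries 1, 2 and 3 and 1724, 5474 and 5371 in BrM libraries 1, 2 and 3. For Ebp, BrM libraries 2 and 3 were 2.35-fold above the parental mean, the largest such excess among the 17 enzymes, while BrM library 1 was 1.34-fold below it. Hsd17b7 was at 1416 in BrM library 1, 2775 and 2978 in BrM libraries 2 and 3, and 2104, 2738 and 4758 in the parental libraries, and Dhcr7, the last reductase, at 3014 in BrM library 1, 5911 and 6184 in BrM libraries 2 and 3, and 6555, 5946 and 5176 in the parental libraries. Sc5d, a sterol desaturase, was at 6594, 5516 and 5579 in parental libraries 1, 2 and 3 and 2486, 4274 and 4041 in BrM libraries 1, 2 and 3. All BrM libraries of Sc5d were below all parental ones, but the adjusted p by limma was 0.0524 (log2 fold change -0.75, SE 0.23). Tm7sf2, a sterol reductase, was the exception, at 264, 517 and 549 in parental libraries 1, 2 and 3 and 392, 480.1 and 475 in BrM libraries 1, 2 and 3, with BrM library 1 inside the parental range. Its exons overlap Vps51 on the same strand, and 9.87% of its stretches of 50 bases are shared with that gene. The part of Vps51 in its level was not tested.

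**Figure D2:**
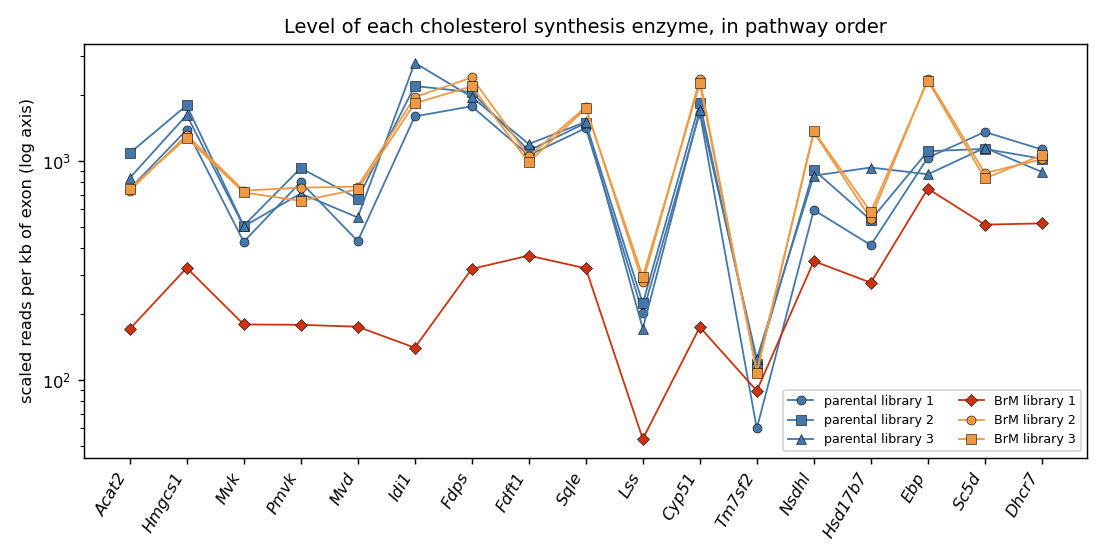
Scaled reads per kb of summed exon length (log axis) of the 17 synthesis enzymes in pathway order from left to right, with 1 line per library; lines join genes only to guide the eye. BrM library 1 (red) runs below the other 5 lines at every enzyme except Tm7sf2, and its distance from them is widest at Idi1 and Cyp51.

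Per kb of summed exon length, Idi1 had the highest parental level of the 17 enzymes, at 2199 scaled reads per kb, followed by Fdps at 1931 and Cyp51 at 1732. Tm7sf2 had the lowest, at 100.7. In BrM library 1 the order changed: Ebp led with 746, ahead of Dhcr7 with 518 and Sc5d with 511, and Idi1 was at 140.0. The median enzyme of the 17 was 1.63 log2 units below the parental mean in BrM library 1 and 0.18 above it in BrM libraries 2 and 3. Over all genes tested these medians were -0.07 and -0.02.

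Promoters of synthesis genes are known to carry the sterol regulatory element bound by SREBPs beside CCAAT boxes bound by NF-Y. RefSeq windows from 250 bases before to 50 after the start site (GRCm38.p6) were available for 26 of the 32 members. The element TCACNCCAC, searched on both strands, was found in 1 of the 26, Hmgcs1, against 1.47% of tested genes with a window. The looser TCACNNCA, which every strict match also fits, was tried after that count was seen and was found in 10 of 26, against 13.3% of tested genes. CCAAT, searched on both strands, was in 21 of 26, against 42.8%, and the GC box GGGCGG in 22 of 26, against 67.5%. A gene with several windows counted once if any held a match. For each member, the 100 to 150 bases nearest to the start site that hold no annotated exon were searched for a TCACNNCA or CCAAT match, leaving out chromosomes 8 and 18. The stretches below belong to the 5 members with such a match that were furthest below BrM libraries 2 and 3 in BrM library 1. Insig1, whose CCAAT match at position -216 lies farther out, is not among them. Neither is Idi1, whose CCAAT matches at positions -45 and -14 lie outside the bases searched. Capitals mark TCACNCCAC, TCACNNCA and CCAAT matches on either strand (ATTGG is CCAAT on the other strand). They are written 5′ to 3′ along the gene, and a match is only a run of letters.
Cyp51, chr5:4104747-4104896, minus strand: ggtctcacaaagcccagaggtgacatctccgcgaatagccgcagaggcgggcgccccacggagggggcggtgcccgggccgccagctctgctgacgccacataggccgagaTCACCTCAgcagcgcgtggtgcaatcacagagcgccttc
Lss, chr10:76531438-76531587, plus strand: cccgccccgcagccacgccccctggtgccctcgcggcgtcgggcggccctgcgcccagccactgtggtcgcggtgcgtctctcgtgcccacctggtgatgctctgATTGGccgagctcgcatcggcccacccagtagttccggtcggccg
Mvk, chr5:114444119-114444268, plus strand: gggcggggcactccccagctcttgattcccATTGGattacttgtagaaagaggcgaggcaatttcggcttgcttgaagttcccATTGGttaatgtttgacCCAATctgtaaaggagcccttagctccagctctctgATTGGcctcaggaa
Hmgcs1, chr13:119690201-119690350, plus strand: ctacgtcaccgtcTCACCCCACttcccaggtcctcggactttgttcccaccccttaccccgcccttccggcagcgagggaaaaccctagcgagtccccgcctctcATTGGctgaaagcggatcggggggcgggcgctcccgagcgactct
Pmvk, chr3:89454391-89454540, plus strand: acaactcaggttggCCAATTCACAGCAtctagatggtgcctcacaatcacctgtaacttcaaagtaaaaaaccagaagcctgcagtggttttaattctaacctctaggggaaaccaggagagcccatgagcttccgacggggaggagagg
In the stretches shown, the Hmgcs1 element starts at position -137 from the start site and the looser match of Cyp51 at position -88. The Cyp51 window also holds a CCAAT match at position -29, outside the stretch shown. The 150 bases of Mvk hold 4 CCAAT matches, and in Pmvk a CCAAT match at position -136 is followed directly by the looser match at position -131.

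BrM library 1 was the lowest library for 5 of the 8 genes of sterol sensing and transcription, against 27.9% of all genes. Insig1 and Srebf2 were at least 2-fold below every other library there, as were 11 of the 17 enzymes, against 3.53% of all genes. Insig2, the relative of Insig1, was highest there. Insig1, which retains Scap in the endoplasmic reticulum and is itself a target of SREBPs, was at 5919, 5368 and 3632 in parental libraries 1, 2 and 3 and 946, 8377 and 8271 in BrM libraries 1, 2 and 3. BrM library 1 was 8.79-fold below the other BrM libraries, and these were 1.71-fold above the parental mean with no overlap. Insig2 was at 2548, 2536 and 1752 in parental libraries 1, 2 and 3 and 3473, 2429 and 2391 in BrM libraries 1, 2 and 3. Srebf2, the gene of SREBP-2, was at 11205, 10813 and 11255 in parental libraries 1, 2 and 3 and 3385, 8504 and 9330 in BrM libraries 1, 2 and 3. All 3 BrM libraries were below the parental ones, library 1 by 3.28-fold, and the group difference did not pass (log2 fold change -0.78, SE 0.38, limma adjusted p = 0.174). Srebf1, the gene of SREBP-1, was at 3796 in BrM library 1, 6868 and 7277 in BrM libraries 2 and 3, and 9372, 10252 and 6952 in the parental libraries. Scap was at 2830 in BrM library 1, 3564 and 3732 in BrM libraries 2 and 3, and 3960, 4318 and 4810 in the parental libraries and did not overlap between groups (limma adjusted p = 0.117).

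Nr1h3 and Mylip of the LXR arm were lower in every BrM library. Nr1h3, which encodes LXR alpha, was at 633, 343 and 653 in parental libraries 1, 2 and 3 and 181, 215 and 214 in BrM libraries 1, 2 and 3. The groups did not overlap, and Nr1h3 fell 2.57-fold (203 ± 19.7 against 543 ± 173, SD, n = 3 libraries each; limma adjusted p = 0.0179). That call was lost without parental library 1 or 3 or BrM library 2 or 3 (adjusted p 0.0702, 0.0621, 0.0576 and 0.0560). Mylip, the LXR target that marks lipoprotein receptors for degradation, was at 902, 596 and 736 in parental libraries 1, 2 and 3 and 293, 261 and 253 in BrM libraries 1, 2 and 3. It fell 2.73-fold (269 ± 21 against 745 ± 153, SD, n = 3 libraries each; limma adjusted p = 0.00434), BrM library 1 lay 1.14-fold above the mean of the other BrM libraries, and the call held without any 1 library. Nr1h2, which encodes LXR beta, was at 5665, 4758 and 4048 in parental libraries 1, 2 and 3 and 5007, 3246 and 3063 in BrM libraries 1, 2 and 3 and did not pass (limma adjusted p = 0.269).

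None of the 3 uptake members, nor Soat1, was lowest in BrM library 1. Soat1, which esterifies cholesterol for storage, was at 1718, 1657 and 1690 in parental libraries 1, 2 and 3 and 2801, 2548 and 2568 in BrM libraries 1, 2 and 3. The groups did not overlap, and Soat1 rose 1.56-fold (2639 ± 141 against 1688 ± 30.3, SD, n = 3 libraries each; limma adjusted p = 0.00859), with BrM library 1 the highest of all. The call held without any 1 library. Apoe, the lipoprotein ligand, was at 98.7, 56 and 62.3 in parental libraries 1, 2 and 3 and 159, 260.2 and 284 in BrM libraries 1, 2 and 3. It rose 3.21-fold from the lowest per-kb level of the 32 members, and lost its call without parental library 2 or 3 or BrM library 2 or 3 (limma adjusted p 0.0614, 0.0526, 0.0672 and 0.0669). Scarb1, the HDL receptor, was at 2515, 3511 and 2659 in parental libraries 1, 2 and 3 and 3426, 3531 and 3512 in BrM libraries 1, 2 and 3 and did not pass (limma adjusted p = 0.222). Vldlr, the very low density lipoprotein receptor, was at 3727, 3165 and 833 in parental libraries 1, 2 and 3 and 3169, 792 and 859.6 in BrM libraries 1, 2 and 3. Its libraries lay at 2 levels that cut across the groups: parental libraries 1 and 2 and BrM library 1 were high, and parental library 3 and BrM libraries 2 and 3 were low.

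Of the genes that move free cholesterol, Stard4 was low in BrM library 1 and Npc2 high. Stard4, a soluble sterol carrier that SREBP-2 induces, was at 1298, 1778 and 1833 in parental libraries 1, 2 and 3 and 212, 1890 and 2018 in BrM libraries 1, 2 and 3. BrM library 1 was 7.58-fold below the parental mean. Npc2, which hands cholesterol from lysosomal contents to Npc1, was at 13823, 10142 and 9792 in parental libraries 1, 2 and 3 and 27079, 8517 and 8017 in BrM libraries 1, 2 and 3. BrM library 1 was 3.28-fold above the other BrM libraries and above all parental ones. Npc1, the membrane partner, was at 1916 in BrM library 1, 1260 and 1296 in BrM libraries 2 and 3, and 2166, 1547 and 1516 in the parental libraries, within the parental range in BrM library 1 and below it in the others.

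**Figure D3:**
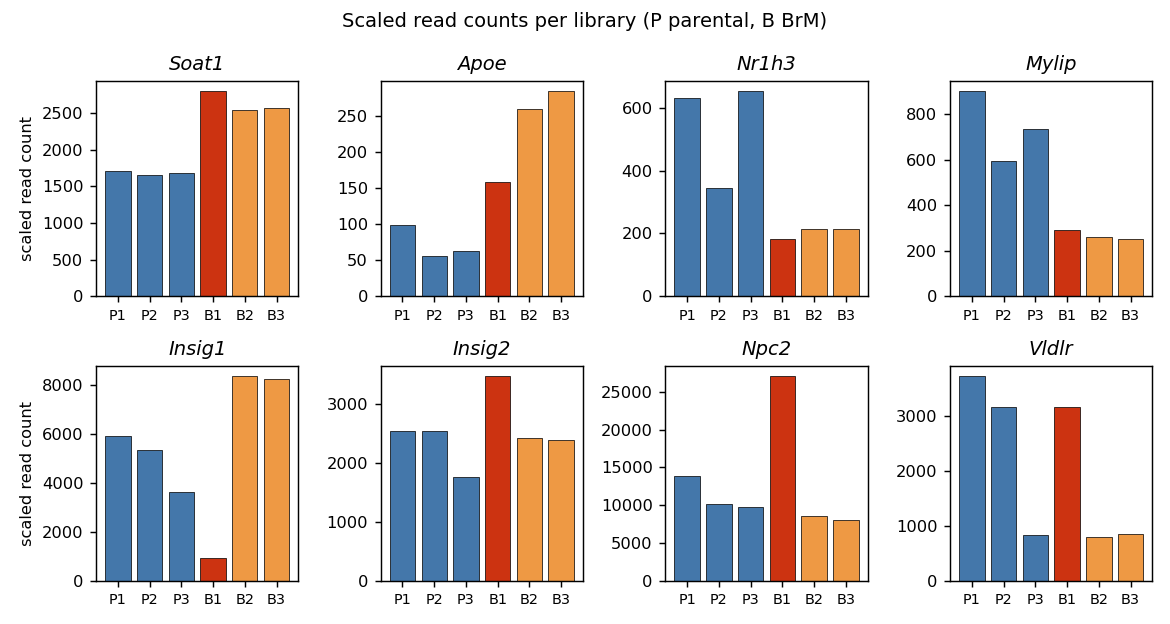
Scaled read count (bars, axis from 0) of 8 members in parental libraries P1 to P3 (blue) and BrM libraries B1 (red), B2 and B3 (orange). Soat1 and Apoe are higher and Nr1h3 and Mylip lower in all BrM libraries, while Insig1, Insig2, Npc2 and Vldlr set B1 apart from B2 and B3.

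Without BrM library 1, limma called 8 members higher and 5 lower, against 20.9% and 26.4% of all genes tested. Higher were Mvk, Lss, Cyp51, Nsdhl, Ebp, Insig1, Soat1 and Apoe, and lower were Sc5d, Srebf2, Nr1h2, Nr1h3 and Mylip. Ebp was 2.35-fold higher (adjusted p = 0.000863) and Insig1 1.71-fold higher (adjusted p = 0.0274). In this fit the derivative rested on BrM libraries 2 and 3, which were at least 2-fold apart for 220 of the 13821 genes tested. With BrM library 1 alone against the parental libraries, an alternative chosen after seeing the data in which the lone library is assumed to vary like the parental ones, 19 members were called lower and 2 higher, against 15.9% and 11.4% of all genes. The 19 included 14 of the 17 synthesis enzymes with Srebf1, Srebf2, Insig1, Stard4 and Mylip, and the 2 higher were Npc2 and Soat1. In both fits Soat1 was called higher and Mylip, Sc5d and Srebf2 lower. Mvk, Lss, Cyp51, Nsdhl and Insig1 were called in both in opposite directions, higher without BrM library 1 and lower in it alone. Because both fits use the same parental libraries, they are not independent.

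**Figure D4:**
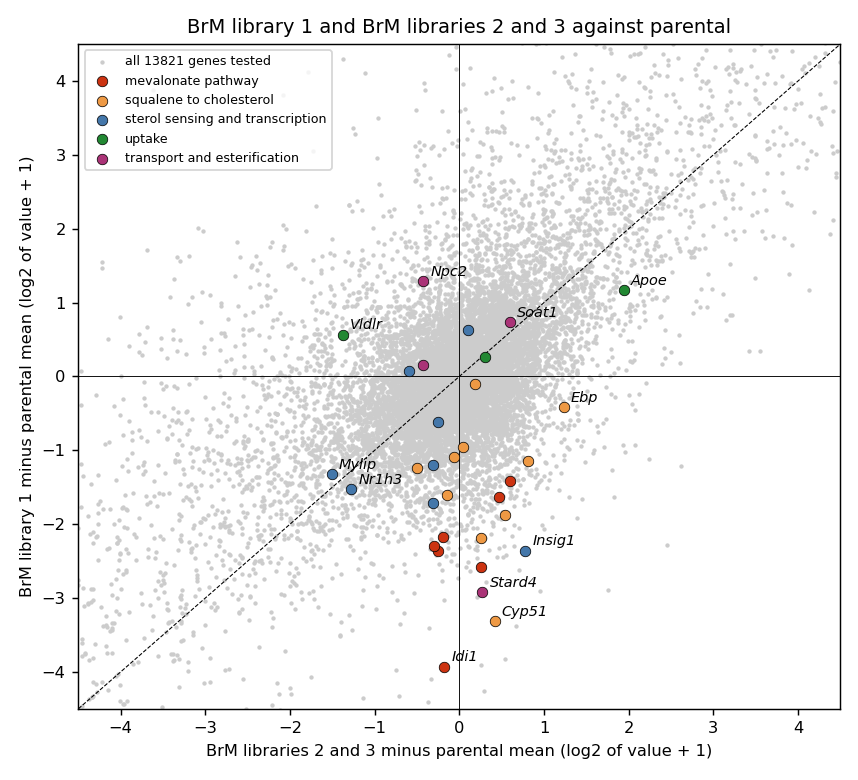
Each gene's difference from the parental mean, on the log2(value + 1) scale, in BrM library 1 (vertical) and in the mean of BrM libraries 2 and 3 (horizontal), for the 32 members (coloured by role) over all 13821 genes tested (grey; 776 lie outside the axes). Both axes share the parental mean, so the grey cloud's slope is no result; all 17 enzymes lie below the dashed line of equality, Idi1 and Cyp51 farthest among them, and Npc2 and Vldlr lie above it.

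Fatty acid synthesis enzymes, which SREBP-1 drives, were also low in BrM library 1. It was the lowest library for 13 of the 16 tested, against 27.9% of all genes. For 10 it was at least 2-fold below both other BrM libraries, against 8.58% of all genes. The median of the 16 was -1.15 against the parental mean on the log2 scale. Across the groups 0 rose, 2 fell and 14 did not pass, while 28.1% of all genes were called. Elovl5, a fatty acid elongase, fell 1.76-fold (3793 ± 761 against 6609 ± 713, SD, n = 3 libraries each; limma adjusted p = 0.0201), and lost its call without parental library 1 or 2 (adjusted p 0.0643 and 0.0805). Me1, the malic enzyme that supplies NADPH, fell 1.49-fold (limma adjusted p = 0.0414) and missed the threshold when any library except BrM library 1 was left out (adjusted p 0.0718 to 0.129). It also missed it with no filter, scaling by total reads, limma without trend and edgeR (adjusted p 0.0508, 0.0648, 0.0684 and 0.0564). Named after their values were seen, the desaturases Scd1 and Fads1 were at 731 and 107 in BrM library 1, at 7914 and 1213 in BrM library 2, and at 15482 to 24878 and 2880 to 4770 in the parental libraries. Proliferation genes were low there too: BrM library 1 was the lowest library for all 12, against 27.9% of all genes. Their median was 1.99 log2 units below BrM libraries 2 and 3, the same distance as for the 17 synthesis enzymes. Mki67 was at 2248 in BrM library 1, 11272 and 12831 in BrM libraries 2 and 3, and 8846 to 17619 in the parental libraries, and Top2a at 8159, 24823 and 25442, and 19953 to 33797. None of the 12 passed between the groups by limma (0 higher and 0 lower). The part of proliferation, medium or library kit in the low sterol enzymes of BrM library 1 was not tested.

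Of 11 genes that process SREBPs or act on sterol-sensing proteins, 1 rose and 10 did not pass, while 28.1% of all genes were called. BrM library 1 was at least 2-fold below the other BrM libraries for 0 of them, against 8.58% of all genes. Erlin2, which helps to remove sterol-sensing proteins, rose 1.47-fold (limma adjusted p = 0.0216) and missed the threshold when any library except BrM library 1 was left out (adjusted p 0.0547 to 0.0928). Of 15 enzymes of other isoprenoid branches, 2 rose, 1 fell and 12 did not pass. Coq2, of coenzyme Q synthesis, rose 1.52-fold, Fntb, a farnesyltransferase subunit, rose 1.74-fold, and Dolk, the dolichol kinase, fell 1.72-fold (limma adjusted p 0.0155, 0.0225 and 0.0359). Coq2 lost its call without parental library 1 or BrM library 2 or 3 (adjusted p 0.0501, 0.0755 and 0.0650). Fntb lost its call without parental library 1 or 3 or BrM library 2 or 3 (adjusted p 0.0721 to 0.0902). Dolk missed the threshold when any library except BrM library 1 was left out (adjusted p 0.0640 to 0.107), and with scaling by total reads (adjusted p = 0.0505).

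Between the groups 4 of 9 efflux genes, 4 of 17 transport genes and 4 of 6 oxysterol enzymes passed, against 28.1% of all genes. Abcg4, Cyp7b1, Cyp27a1 and Cyp46a1 averaged under 10 in 1 group and passed the filter through the group where they were high. Their calls are therefore no measure of how these lists stand against all genes. At least 2-fold higher in BrM library 1 than in both other BrM libraries were 3 of 9 efflux genes, 3 of 17 transport genes and 3 of 6 oxysterol enzymes. Over all genes tested this share was 14.7%. Of 9 tested efflux and lipoprotein genes, 1 rose and 3 fell. Lpl, lipoprotein lipase, fell 23.3-fold (73.8 ± 57.2 against 1641 ± 845, SD, n = 3 libraries each) and Pltp, a phospholipid transfer protein, fell 7.0-fold (128 ± 30.0 against 947 ± 383), with limma adjusted p of 0.00428 and 0.00344. Abcg4, a sterol exporter of neural cells, rose 13.1-fold from a low level (77.5 ± 22.2 against 5.32 ± 3.30; limma adjusted p = 0.00294). Of 17 transport and ester hydrolysis genes, 1 rose and 3 fell: Gramd1c, a sterol transfer protein, rose 2.04-fold, Scarb2, a lysosomal membrane protein, fell 4.79-fold, and Stard5, a sterol carrier, fell 5.90-fold (limma adjusted p 0.0113, 0.000356 and 0.0044). Gramd1c lost its call without BrM library 2 or 3 (adjusted p 0.0608 and 0.0588). Outside the naming rule and chosen after their values were seen, the remaining called genes of these lists were Smpdl3a, an LXR-induced phosphodiesterase (17.6-fold lower, limma adjusted p = 0.0447), and Osbpl8, an oxysterol-binding protein (1.38-fold lower, limma adjusted p = 0.0404). Smpdl3a was 49.5-fold lower without BrM library 1 and 2.24-fold lower in that library alone (adjusted p = 0.0771). Smpdl3a and Osbpl8 both lost their calls without any of the libraries but BrM library 1 (adjusted p 0.105 to 0.139 and 0.0725 to 0.149). Smpdl3a also lost it by edgeR (adjusted p = 0.154) and limma without trend (adjusted p = 0.0606), and Osbpl8 with no filter, scaling by total reads or limma without trend (adjusted p 0.0571, 0.0865 and 0.0658).

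Of 6 oxysterol enzymes, 1 rose and 3 fell, while 12.2% of all genes were called higher and 15.8% lower. Cyp7b1, Cyp27a1 and Cyp46a1 passed the filter only through the group where they were high, so these shares cannot be compared as a result. Cyp7b1, an oxysterol hydroxylase, was at 603 ± 72.6 in the parental line and rested on 2 reads in BrM, 883-fold lower by the ratio of reads (exact 95% interval 244 to 7294, for counting error only). It fell by limma with an adjusted p of 0.000115. Cyp39a1, another hydroxylase of oxysterols, fell 12.8-fold (limma adjusted p = 0.00373) and moved to 19.3-fold without BrM library 1. Cyp46a1, which makes the oxysterol of neurons, rose 17.0-fold (170.4 ± 161 against 6.90 ± 2.67, SD, n = 3 libraries each; limma adjusted p = 0.00657), and moved to 10.3-fold without BrM library 1. Lpl likewise moved to 35.1-fold without that library. The third that fell, named after its values were seen, was Cyp27a1, the mitochondrial sterol hydroxylase, at 48.7 ± 48.4 in the parental line and 0 in all BrM libraries (limma adjusted p = 0.0067). Without parental library 1 it was under the filter. Of 6 other lipoprotein receptors tested, 0 rose by limma and 2 fell: Sort1, sortilin, fell 2.68-fold and Lrp10, a receptor of the same family as Vldlr, fell 1.52-fold (limma adjusted p 0.000812 and 0.0177). Lrp10 lost its call without parental library 2 or BrM library 2 or 3 (adjusted p 0.0523, 0.0694 and 0.0658). Named after its values were seen, Lrp8, a receptor for Apoe, was at 316 in BrM library 1, 2336 and 2717 in BrM libraries 2 and 3, and 727, 1083 and 2102 in the parental libraries. It was 7.95-fold below the other BrM libraries in BrM library 1, and the groups overlapped (limma adjusted p = 0.947).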

How the data were processed

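Polyadenylated RNA of 6 mouse libraries was analysed, 3 per group. The deposited signal values are read counts that the authors scaled by library; per the submitters' processing notes HTSeq, STAR and GRCm38 (GRCh38 for human) were used, and the scaling tool, annotation and strand setting are not given in the sources used here. Dividing by the value of 1 read gave whole numbers (tolerance 0.01) for 100% of values, and these recovered reads entered the count tests. The 13821 genes averaging 10 or more were tested with limma 3.58.1 (R 4.3.3) on log2(value + 1), with an intensity trend, two-sided and Benjamini-Hochberg adjusted; a call is an adjusted p under 0.05. Fold changes are on that scale, as are the folds given for single libraries. Called genes numbered 3881, or 3753 by edgeR 4.0.16 on the recovered reads, with 5075 by DESeq2 1.42.0. Alternatives changed the pseudocount, filter, scaling, moderation, weights and libraries used. The procedure was tested on simulated data in which no library was set apart from its group, unlike BrM library 1 here.

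Members and gene lists were chosen with earlier results of these data known. All members are named, and of each related list up to 3 called genes with the smallest p-values, or the 2 of highest mean where none was called. Exon lengths came from GENCODE M21 and promoters from RefSeq (GRCm38.p6); summed exons of all transcripts can overstate the length expressed. Exons of 11 members overlap another gene. Depth was 29877087 to 46683735 reads in genes per library. Of the listed genes 27 had symbols turned into dates and are not named.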

Additional observations from a re-analysis of the deposited data

How the results depend on the processing

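Of 672 refits of the 32 members, 588 kept direction and side of the threshold, 12 lost a call (Apoe and Nr1h3, 6 each), 32 gained one in the same direction and 40 changed sign, 7 of these past the threshold. Soat1 and Mylip kept their calls in all 21 alternatives. Members called, 2 higher and 2 lower, were 6 and 8 with array weights, 1 and 1 with BrM libraries 2 and 3 averaged, and 2 and 19 with BrM library 1 alone (chosen after seeing the data). Leaving out 1 library gave 1 to 8 higher and 1 to 5 lower. All genes called, 3881, were 8485 with array weights, 2263 with BrM libraries 2 and 3 averaged and 2190 to 6465 with 1 library left out. With array weights the log2 fold change turned positive for Mvk (0.55), Mvd (0.33), Fdps (0.19), Sqle (0.22), Lss (0.44), Cyp51 (0.34), Dhcr7 (0.020), Insig1 (0.68) and Stard4 (0.19) and negative for Npc2 (-0.36). edgeR and DESeq2 turned Mvk (0.20 in both), Mvd (0.037 and 0.040), Lss (0.091 and 0.092) and Insig1 (0.26 in both) positive, and scaling by total reads Mvk (0.016). Averaging BrM libraries 2 and 3 turned Nsdhl negative (-0.17) and ended the calls of Apoe, Nr1h3, Coq2, Fntb, Dolk, Me1, Erlin2, Gramd1c, Lrp10, Smpdl3a and Osbpl8 (adjusted p 0.0562 to 0.123). BrM library 1 alone turned Tm7sf2 (-0.10), Nsdhl (-1.15) and Ebp (-0.42) negative and Nr1h2 (0.067), Vldlr (0.56) and Npc1 (0.16) positive. Sign changes with 1 library left out were found for Mvk (-0.41 to 0.60), Mvd (-0.59 to 0.47), Fdps (-1.20 to 0.25), Sqle (-0.97 to 0.25), Lss (-0.69 to 0.54), Cyp51 (-1.47 to 0.41), Tm7sf2 (-0.25 to 0.28), Nsdhl (-0.17 to 0.81), Dhcr7 (-0.47 to 0.044), Insig1 (-0.80 to 0.77), Npc2 (-0.43 to 0.45) and Stard4 (-1.35 to 0.27). None of these 12 genes passed the test with all 6 libraries.

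Deviations from the group means correlated at 0.304, -0.088 and 0.326 for library numbers 1, 2 and 3. BrM libraries 1 and 3 correlated best with the parental library of their own number, and BrM library 2 with parental library 3 (0.311). Because BrM libraries 2 and 3 lay close together, these values cannot tell whether the numbers pair the samples. With the replicate block 4040 genes were called, and 2 members higher and 2 lower; Dolk then missed the threshold (adjusted p = 0.0501). Scaling moved the median log2 fold change of all genes from -0.05 to 0.04 at most, and by total reads the calls over all genes were 1983 higher and 1960 lower against 1691 and 2190.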
